A study of Mus musculus with 9 samples.

Results

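Transcripts of 10 genes that encode chaperones of the endoplasmic reticulum (ER) or belong to the unfolded protein response were followed in 9 mouse embryonic stem cell (mESC) lines on Affymetrix Mouse Gene ST arrays. The genes were Hspa5, Hsp90b1, Pdia4, Pdia6, Txndc12, Calr, Dnajb9, Sdf2l1, Herpud1 and Xbp1. They were taken as the rows of the expression table whose annotation gives that symbol and no other, and all 10 were found. They make up 10 of the 19938 symbols that stand alone on a row and 11 of the 23410 rows with a gene, because Pdia4 has 2 rows. The row with the higher mean stands for Pdia4 unless the other is named. Txndc12 is also among the genes that the study itself picked from these arrays, so its choice here is not independent of them.

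There were 3 lines in each of 3 groups, with 1 array per line. The control lines FB1, FB2 and FB3 (mESCFB) were derived from blastocysts conceived by natural mating and flushed from the uterus. The lines KAA1, KAA2 and KAA3 (mESCKAA) came from IVF embryos grown in KSOM with amino acids under 5% O2. The lines WM1, WM2 and WM3 (mESCWM) came from IVF embryos grown in Whitten's medium under 20% O2. All lines are labelled female with a C57BL/6 background (C57BL/6J for the eggs and sperm of the IVF embryos), and per the methods of the study all were derived alike on mouse embryonic fibroblast feeders with LIF and the 2i inhibitors under 20% O2, then moved to gelatin and collected at the eighth passage. The embryo culture had thus ended several passages before the RNA was taken, and each line descends from its own blastocyst. The comparisons ask whether mESC keep a trace of natural conception or of either IVF culture in these transcripts.

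The ER folds proteins that are bound for membranes and for secretion. The chaperone Hspa5 (BiP) holds unfolded chains with the help of J-domain partners, protein disulfide isomerases join and exchange cysteines, and lectin chaperones such as calreticulin hold glycoproteins. When unfolded protein builds up, sensors in the ER membrane activate the transcription factors ATF6, XBP1 and ATF4, which raise transcripts of chaperones and of ER-associated degradation. The ER stress response element, ERSE, is the promoter motif at which ATF6 and XBP1 act together with NF-Y on several chaperone genes. Cells that secrete much, such as endoderm cells that lay down basement membrane, need a large folding capacity.

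The promoters are shown because they describe the genes by sequence, whatever the arrays read. RefSeq holds a promoter for all 10 genes (build GRCm38.p6, 250 bases before to 50 after the annotated start), and each was searched on both strands for ERSE, spelled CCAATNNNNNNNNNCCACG, and for the shorter ERSE-II, spelled ATTGG, any 1 base and CCACG. Both motifs share the letters CCACG, and none of the 10 promoters holds both. ERSE was found in 4 of the 10, those of Hspa5, Hsp90b1, Pdia6 and Calr, against 39 of all 32851 promoters of that length (0.119%). ERSE-II was found in Herpud1 alone among the 10, against 12 of all promoters (0.0365%). Both motifs are known from genes of this kind, so the counts describe the sequences and are no test of the 10 genes. The 250 bases before the start of Hspa5 (chr2:34771840-34772089, plus strand) and of Hsp90b1 (chr10:86705445-86705694, minus strand) follow in the direction of the gene, 5′ to 3′, with the fixed letters of each ERSE in capitals. The element of Hspa5 begins 65 bases before the start. Hsp90b1 carries 2, beginning 212 and 107 bases before it. The nearer one lies on the opposite strand, so that as printed it reads CGTGG first and ATTGG last.
Hspa5: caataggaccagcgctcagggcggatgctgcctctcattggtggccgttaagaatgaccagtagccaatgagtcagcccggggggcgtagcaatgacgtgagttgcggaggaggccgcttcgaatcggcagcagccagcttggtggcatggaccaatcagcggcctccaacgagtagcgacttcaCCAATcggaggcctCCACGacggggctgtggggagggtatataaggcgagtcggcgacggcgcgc
Hsp90b1: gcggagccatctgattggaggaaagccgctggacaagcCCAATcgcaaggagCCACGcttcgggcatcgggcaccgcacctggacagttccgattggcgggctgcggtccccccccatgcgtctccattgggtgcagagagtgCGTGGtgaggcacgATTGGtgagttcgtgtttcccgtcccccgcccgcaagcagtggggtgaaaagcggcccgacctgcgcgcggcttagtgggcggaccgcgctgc

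The matched sites are given along the motif, again with the fixed letters in capitals, so that the spacers between the CCAAT part and the CCACG part can be compared. The element of Pdia6 begins 98 bases before the start, that of Calr 162 bases before it on the opposite strand, and the ERSE-II of Herpud1 52 bases before it.
Hspa5: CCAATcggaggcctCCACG
Hsp90b1 farther site: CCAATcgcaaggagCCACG
Hsp90b1 nearer site: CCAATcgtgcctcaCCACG
Pdia6: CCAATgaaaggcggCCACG
Calr: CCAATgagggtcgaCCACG
Herpud1, ERSE-II: ATTGGgCCACG
The spacer letters differ at each site, also between the 2 sites of Hsp90b1. These letters were not found in the windows of Pdia4, Dnajb9, Sdf2l1, Xbp1 and Txndc12. A match is a description of the sequence, not a measured binding site.

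Levels are log2 values made by the authors with RMA, so that a difference of 1 is a doubling. The array medians lay between 4.64 and 4.70. Of the rows with a gene, 62.3% have exactly the same value in at least a pair of lines, which limits how finely such rows resolve the lines. Although all lines are labelled female, the transcript of the Y-linked gene Eif2s3y was at 4.78 in FB1, 3.72 in KAA2 and 5.19 in WM3, against 1.77 to 2.20 in the other 6 lines. The mESC markers were measured in every line, with mean levels between 6.82 and 12.01 for the 10 markers.

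None of the 10 ER genes passed a test between groups. limma, fitted over all 9 lines and adjusted over all 23410 rows (Benjamini-Hochberg), called 0 of the 10 in each of the 3 comparisons, where it called 0% of all rows. Its F test over the 3 groups also called 0 of 10 (0% of all rows). At an unadjusted p under 0.05 limma counted 0 of 10 genes for mESCKAA against mESCFB, 0 for mESCWM against mESCFB and 1 for mESCWM against mESCKAA, beside 1126, 1380 and 1473 of all rows. The rank product, the test named in the methods of the study, called 0 of 10 in each comparison at a percentage of false positives under 0.05, where it called 0.115%, 0.094% and 0.29% of all rows. The study itself lists Txndc12 as significantly higher in mESCKAA than in mESCFB. The rank product run here did not reproduce that call, with a percentage of false positives of 0.54, given as a fraction. The 3 lines of any group overlapped those of any other for all 10 genes, whereas 8.08% of all rows did not overlap between mESCKAA and mESCFB, 8.13% between mESCWM and mESCFB and 8.66% between mESCWM and mESCKAA.

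With all 9 lines the differences of the 10 genes fell about evenly on both sides of 0. The median difference was -0.0013 for mESCKAA minus mESCFB, with 4 of 10 above 0, beside 0.0067 over all rows. It was 0.0243 for mESCWM minus mESCFB, with 5 of 10 above 0, beside 0.0046. It was 0.0334 for mESCWM minus mESCKAA, with 5 of 10 above 0, beside -0.0068. Each gene was also set against the rows within 0.5 log2 of its own mean level, 419 to 2693 rows per gene, whose median differences lay between -0.06 and 0.05. Relative to those rows the median of the 10 genes was 0.0402, 0.0365 and 0.0162 in the same order. Without FB1 and KAA1, left out together as an alternative chosen after the values were seen, the medians of the 10 genes were 0.0326, 0.1916 and 0.1828, with 6, 8 and 7 of 10 above 0. Over all rows the medians of that fit were 0.0086, 0.0016 and -0.0076. FB1 and KAA1 were high lines for most of the 10 genes. No mESCWM line was left out with them, so the choice itself raised the medians of mESCWM minus the other groups. Again 0 of 10 passed limma in each comparison without these lines, where 0 of 23410 rows passed. Of the 10, 0, 3 and 2 had an unadjusted p under 0.05. The share of all rows at that p is not given for this fit, so these counts have no background beside them.

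**Figure D1:**
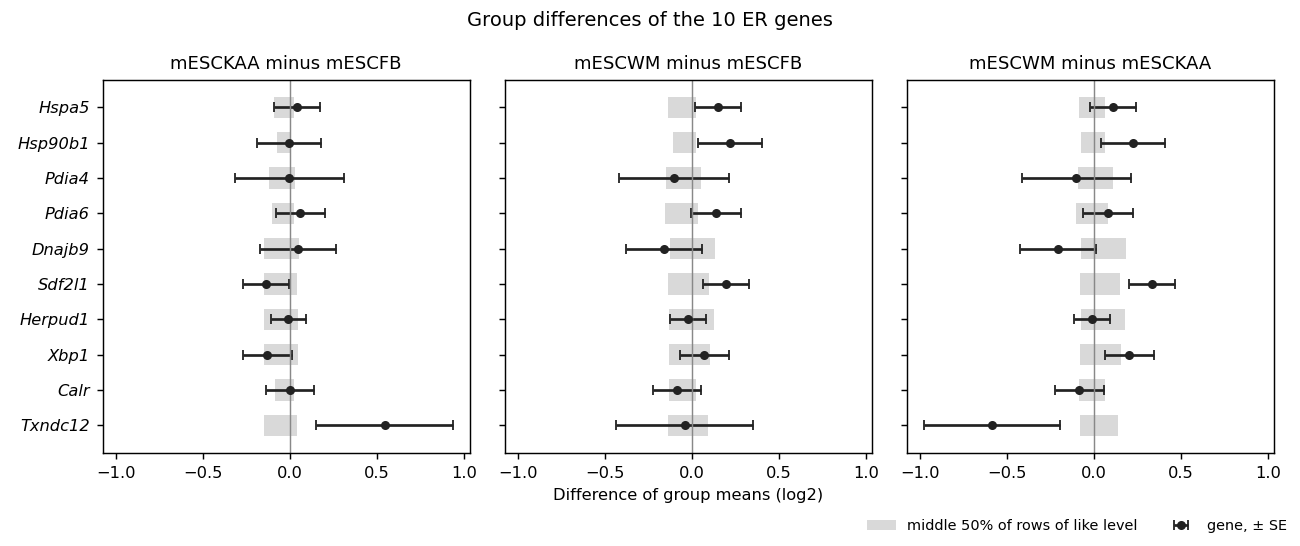
Difference of group means (log2) for each of the 10 ER genes in the 3 comparisons, with bars of 1 SE from limma over all 9 lines, and in grey the middle 50% of rows within 0.5 log2 of the gene's mean level. The points lie between -0.59 (Txndc12, mESCWM minus mESCKAA) and 0.55 (Txndc12, mESCKAA minus mESCFB), and no adjusted p passed 0.05.

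Hspa5, the Hsp70 of the ER lumen (chromosome 2, 34772090 to 34776529), was at 9.89, 9.50 and 9.64 in FB1, FB2 and FB3. It was at 9.94, 9.58 and 9.64 in KAA1, KAA2 and KAA3, and at 9.95, 9.76 and 9.77 in WM1, WM2 and WM3. The highest line of each group was thus the one numbered 1, and the groups overlapped. The means were 9.68 ± 0.20 (SD, n = 3), 9.72 ± 0.19 and 9.82 ± 0.11, and the difference of mESCWM minus mESCFB was 0.15 (95% interval -0.15 to 0.45, limma's adjusted p = 0.89). Leaving out single lines moved it to between 0.06, without FB2, and 0.25, without FB1. RefSeq places Rabepk over part of the Hspa5 locus.

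Hsp90b1, the Hsp90 of the ER (endoplasmin; chromosome 10, 86690841 to 86705444), was at 10.79 in FB1, 10.82 in KAA1 and 10.83 in WM1, at 10.68 and 10.54 in WM2 and WM3, and at 10.28 to 10.32 in the other 4 lines. The order of the lines was close to that of Hspa5, with the lines numbered 1 on top, WM2 and WM3 between, and the other mESCFB and mESCKAA lines together below. The mean of mESCWM, 10.69 ± 0.15 (SD, n = 3), lay 0.22 above that of mESCFB, 10.47 ± 0.28, with a 95% interval of -0.20 to 0.63 and limma's adjusted p = 0.88. Against mESCKAA, 10.46 ± 0.31, the difference was also 0.22, with an interval of -0.19 to 0.64 and limma's adjusted p = 0.82. Without FB1 and KAA1 the differences of Hsp90b1 were 0.38 (SE 0.10, limma's adjusted p = 0.596) and 0.40 (SE 0.10, adjusted p = 0.669). That removal was one-sided. It took out the highest line of mESCFB and of mESCKAA and kept WM1, the highest line of all, so larger differences follow from the choice. Over all alternatives run the differences of Hsp90b1 lay between 0.13 and 0.45 and between 0.13 and 0.40, and the lowest adjusted p were 0.581 and 0.622.

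The protein disulfide isomerases among the 10 are Pdia4, Pdia6 and the smaller thioredoxin-like Txndc12. Pdia6 (chromosome 12, 17266589 to 17284785, where RefSeq also places Atp6v1c2) was at 9.57 in FB1, 9.53 in KAA1 and 9.61 in WM1. It was at 9.46 in WM2 and at 9.16 to 9.28 in the other 5 lines. The lines numbered 1 were again on top in every group, and the groups overlapped. The difference of mESCWM minus mESCFB was 0.14 (95% interval -0.19 to 0.46, limma's adjusted p = 0.904), and it was 0.05 without WM1 and 0.27 without FB1.

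Pdia4 (chromosome 6, 47796141 to 47813512, with the microRNA gene Mir704 inside it) split the lines in another way. It was at 9.08 in FB1 and 9.02 in KAA1, and between 8.05 and 8.37 in the other 7 lines, WM1 included at 8.35. The gap of FB1 and KAA1 to the next line was larger than the whole range of those 7. The means of mESCFB, 8.42 ± 0.58 (SD, n = 3), and of mESCKAA, 8.42 ± 0.53, were nearly equal, since each group held 1 of the high lines, and mESCWM was at 8.31 ± 0.08. The difference of mESCWM minus mESCFB was -0.10 (95% interval -0.82 to 0.61, limma's adjusted p = 0.982), and without FB1 and KAA1 it turned to 0.23 (SE 0.09, limma's adjusted p = 0.706, the lowest of all alternatives run). The second row of Pdia4 was lowest in FB3 at 2.61, and KAA1 at 3.84 and FB1 at 3.46 were again its highest lines.

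Txndc12 (chromosome 4, 108834678 to 108862120, where RefSeq also places Kti12) had the widest range of the 10 genes, 1.89. It was at 8.52 in KAA1, at 7.31 in FB1 and between 6.63 and 6.94 in the other 7 lines. A single line thus carried the mean of mESCKAA, 7.46 ± 0.92 (SD, n = 3), against 6.91 ± 0.35 in mESCFB and 6.87 ± 0.08 in mESCWM. The difference of mESCKAA minus mESCFB was 0.55 (95% interval -0.35 to 1.44, limma's adjusted p = 0.918), and that of mESCWM minus mESCKAA was -0.59 (interval -1.48 to 0.31, adjusted p = 0.807). In the rank product its lowest percentages of false positives were 0.54 and 0.447, given as fractions. Without KAA1 alone the difference of mESCKAA minus mESCFB was 0.02, and without FB1 alone it was 0.74. That of mESCWM minus mESCKAA was -0.06 without KAA1.

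Calr, the lectin chaperone and calcium-binding protein calreticulin (chromosome 8, 84842088 to 84846931), was at 10.30 in KAA1 and 10.18 in FB1. The other lines lay between 9.79 in KAA3 and 10.03 in WM3. The same pair of lines as for Pdia4 and Txndc12 was on top, with a smaller gap. The means were 10.01 ± 0.14 (SD, n = 3) in mESCFB, 10.01 ± 0.26 in mESCKAA and 9.93 ± 0.12 in mESCWM, and limma's adjusted p was 0.909 or more in each comparison.

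**Figure D2:**
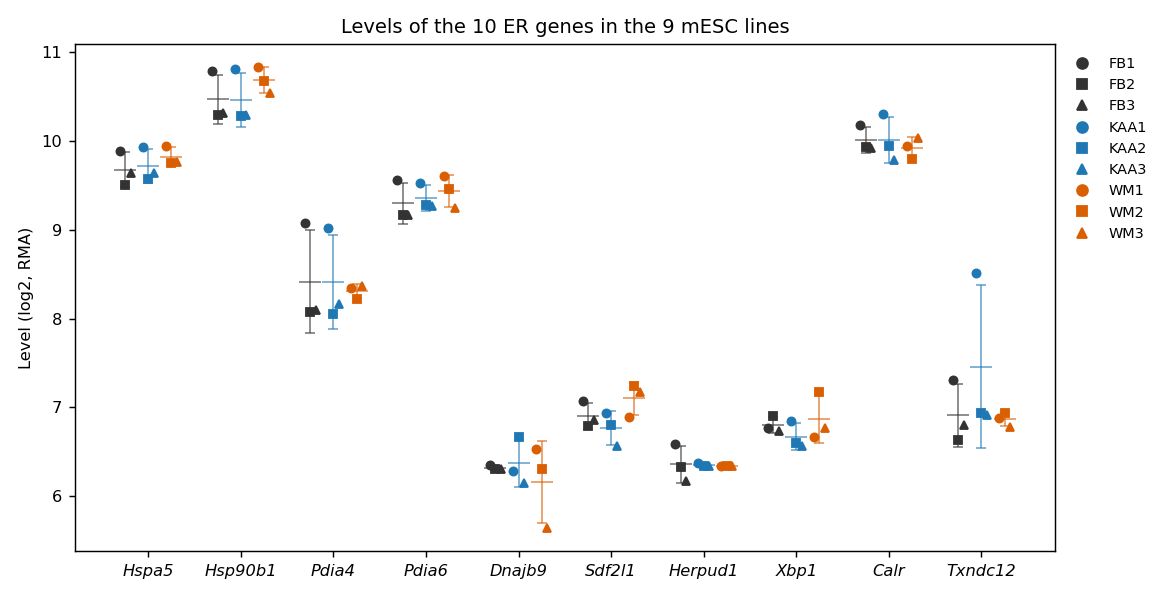
Level of each of the 10 ER genes (log2, RMA; linear axis that does not start at 0) in the 9 lines, with circles, squares and triangles for the lines numbered 1, 2 and 3, and with the mean and SD of the 3 lines of each group. Circles lie on top in all groups for Hspa5, Hsp90b1 and Pdia6, and the circles of FB1 and KAA1 stand apart for Pdia4, with Txndc12 reaching 8.52 in KAA1.

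The J-domain partner Dnajb9 and Sdf2l1, which is found in complexes with Hspa5 and its partners, did not follow these orders. Dnajb9 (chromosome 12, 44205897 to 44210068) was at 6.31, its median, in FB2, FB3 and WM2 alike, at 6.35 in FB1 and at 6.29 in KAA1. It was highest in KAA2 at 6.67 and in WM1 at 6.53, and lowest in WM3 at 5.64. The control lines were close together, 6.32 ± 0.02 (SD, n = 3), and the mESCWM lines were spread over them on both sides, 6.16 ± 0.46. The difference of mESCWM minus mESCFB was -0.16 (95% interval -0.66 to 0.34, limma's adjusted p = 0.936), and it turned to 0.10 without WM3.

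Sdf2l1 (chromosome 16, 17130138 to 17132383) was at 7.07, 6.80 and 6.85 in FB1, FB2 and FB3 and at 6.94, 6.80 and 6.57 in KAA1, KAA2 and KAA3. It was at 6.89, 7.24 and 7.18 in WM1, WM2 and WM3. WM2 and WM3 were above all 7 other lines, while WM1 lay below KAA1 and within the control lines. Sdf2l1 had the largest share of its variance between groups among the 10 genes, 47.6%. The difference of mESCWM minus mESCKAA was 0.33 (95% interval 0.03 to 0.63, unadjusted p = 0.0354 and adjusted p = 0.771 in limma), which did not pass.

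Herpud1, a membrane protein of ER-associated degradation with a ubiquitin-like domain (chromosome 8, 94386429 to 94395371), varied least of the 10. It was at 6.59 in FB1, 6.38 in KAA1, 6.33 in FB2 and 6.18 in FB3, and at the same value of 6.34 in the other 5 lines. The 3 mESCWM lines were thus equal to the last digit, and their SD of 0 does not describe the spread of the cells. Its share of variance between groups was 0.89%, the lowest of the 10, and limma's adjusted p was 0.984 or more in each comparison.

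Xbp1, the transcription factor whose mRNA is cut by the ER sensor Ern1 (chromosome 11, 5520641 to 5525993), was highest in WM2 at 7.18. The other lines lay between 6.57 in KAA3 and 6.90 in FB2, with FB1 and WM3 equal at 6.77. FB1 and KAA1 were not set apart here. The means were 6.80 ± 0.09 (SD, n = 3) in mESCFB, 6.67 ± 0.15 in mESCKAA and 6.87 ± 0.27 in mESCWM, with limma's adjusted p = 0.807 for the largest difference, 0.20 for mESCWM minus mESCKAA. Without WM2 that difference was 0.05, and without WM1 it was 0.30. The table gives 1 level per transcript cluster and does not separate the cut form of Xbp1 from the uncut one.

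The share of a gene's variance that lay between groups was 24.9% or less for 9 of the 10 and 47.6% for Sdf2l1. The median share over all rows was 24.5%. With 3 groups of 3 lines the share averages 25% where groups do not differ, a mean that cannot be set directly against a median. Beside the median over all rows, these shares say nothing particular about the 10 genes. Over the 9 lines, 8 of the 10 had a larger SD than the median of the rows of like level, and 4 were above the upper quartile of those rows. The ratio of the SD to that median was 3.13 for Txndc12, 2.57 for Pdia4, 2.51 for Hsp90b1 and 0.536 for Herpud1. The rows of like level themselves did not shift much from line to line, with median deviations of -0.06 to 0.06 over the lines and genes. The lines did differ by gene length. Over 10908 rows at or above the median level, Spearman's rho of a line's deviation with gene length was 0.26 in WM1, 0.202 in FB1 and 0.106 in KAA1. It was -0.331 in KAA2, -0.185 in FB2 and -0.127 in FB3, and between -0.000452 and 0.0658 in KAA3, WM2 and WM3. The part of this trend in the levels of the ER genes was not tested.

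The lines that were high were mostly the same ones. In 3 of the 10 genes, Hspa5, Hsp90b1 and Pdia6, the lines FB1, KAA1 and WM1 were above the other 6, an order found in 2.14% of all rows and in 4.45% of the 6944 rows of a level like that of any of the 10. In another 4, Pdia4, Herpud1, Calr and Txndc12, FB1 and KAA1 were above the other 7 lines, which holds for 4.96% of all rows and 9.38% of those of like level. For Herpud1 the margin of KAA1 was small, at 6.38 against a value of 6.34 shared by 5 lines. Both orders were chosen after the values were seen, so the counts describe these arrays and are no test. The median deviation of the 10 genes from their own means was 0.20 in FB1 and 0.18 in KAA1, between -0.18 and -0.13 in FB2, FB3, KAA2 and KAA3, and between -0.02 and 0.02 in the mESCWM lines. All 3 lines of the first order are numbered 1 in their groups, and nothing in the labels says that a number marks a shared batch.

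Markers of endoderm moved with the same lines. Of 14 markers, 12 had FB1 and KAA1 above all other lines, among them the transcription factors Gata4 and Gata6, the adaptor Dab2 and the laminin chain Lama1. The median deviation of the 14 was 0.56 in FB1 and 0.83 in KAA1, and between -0.40 and -0.03 in the other 7 lines. Lama1 was at 6.95 in FB1 and 7.32 in KAA1, against 4.43 to 5.07 in the others. Gata6 was at 6.34 and 7.01 in the same lines, against 4.81 to 5.73. The 2 markers that did not follow were Serpinh1, highest in WM1 at 9.11, and Afp, at 2.43 to 2.78 throughout.

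The endoderm list as a whole had a mean level of 6.62 in FB1 and 6.88 in KAA1, against 5.63 to 5.94 in the other lines. The 10 mESC markers had a median deviation of 0.08 in FB1 and 0.01 in KAA1. Of these, 6 were above their own mean in FB1 and 5 in KAA1. While 2 had FB1 and KAA1 as their lowest lines, Klf2 and Nanog, another 2 were highest in FB1, Pou5f1 at 10.43 and Tdgf1 at 11.93. Nanog was at 8.52 in KAA1 and 9.02 in FB1 against 9.09 to 10.35. Of 13 feeder fibroblast markers 0 had FB1 and KAA1 above the rest, and their median deviation was highest in WM2 at 0.19. The fibroblast markers had a median difference of 0.12 in mESCWM minus mESCFB, with 11 of 13 above 0. The mean levels of these 13 ran from 1.82 to 9.12. Their largest differences in that comparison were 1.10 for Acta2, 0.73 for Fn1 and 0.57 for Vim, with adjusted p of 0.685 or more in limma. limma called 0 of the 14 endoderm and 0 of the 13 fibroblast markers in each comparison, while 0, 2 and 1 endoderm and 0, 3 and 3 fibroblast markers had an unadjusted p under 0.05. Of all rows, 4.81%, 5.89% and 6.29% had such a p. The part of endoderm-like cells or of feeder cells in the levels of the ER genes was not tested, and in RNA from whole cultures more cells of a type and more RNA per cell cannot be told apart.

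**Figure D3:**
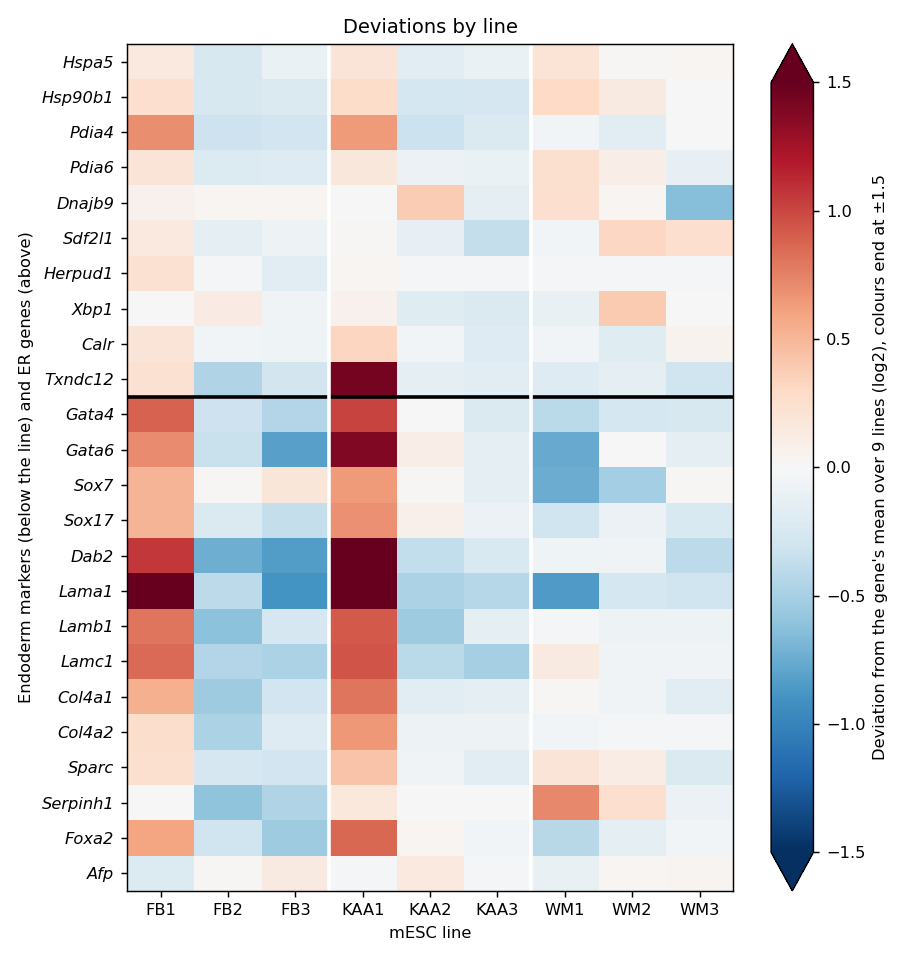
Deviation of each gene from its own mean over the 9 lines (log2), with the 10 ER genes above the black line and 14 endoderm markers below it, red above and blue below the mean. In the columns of FB1 and KAA1, 12 of the 14 markers are redder than in any other line. So are Pdia4, Calr and Txndc12, and also Herpud1, though in KAA1 only by a deviation of 0.026. WM1 is red for Hspa5, Hsp90b1 and Pdia6 but not for Pdia4.

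Hsp90b1 was the gene of the 10 whose levels ran most closely with those of Hspa5. Over the 9 lines Pearson's r was 0.956 and Spearman's rho 0.933 (exact permutation p = 0.000152 and p = 0.00075), which placed Hsp90b1 at rank 10 among 23404 rows that vary. For Pdia6, at rank 42, r was 0.898 and rho 0.783 (exact permutation p = 0.00243 and p = 0.0172). Adjusted over all those rows, the exact permutation p of r was 0.122 for Hsp90b1 and 0.29 for Pdia6, and 0 of the 9 genes passed, where 0% of all rows passed and the lowest adjusted p was 0.0752. Without FB2 and WM1, the lines farthest from the median of Hspa5, r was 0.964 for Hsp90b1 and 0.832 for Pdia6. As deviations from the group means it was 0.957 and 0.886. In the same alternatives rho was 0.964 and 0.917 for Hsp90b1. For Pdia6 rho fell to 0.536 and 0.65 (exact permutation p = 0.236 and p = 0.0666). The relation of Hsp90b1 thus did not rest on differences between groups, while that of Pdia6 held by r but was weaker by rank.

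Pdia4 and Txndc12 fell into FB1 or KAA1 on one side and the rest on the other, so their relation to Hspa5 is given only within the other 7 lines. There r was 0.865 for Pdia4 and rho 0.893 (exact permutation p = 0.00873 and p = 0.0123, adjusted p = 0.462 for r), and r was 0.403 for Txndc12 (exact permutation p = 0.374). In the same 7 lines r was 0.932 for Hsp90b1 and 0.852 for Pdia6, with rho of 0.857 and 0.571. Over all 9 lines r was 0.581 for Calr, 0.474 for Herpud1, 0.458 for Sdf2l1, 0.0962 for Xbp1 and -0.0279 for Dnajb9. Calr had an r of 0.097 without FB1 and KAA1, so that its relation to Hspa5 rested on these lines.

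**Figure D4:**
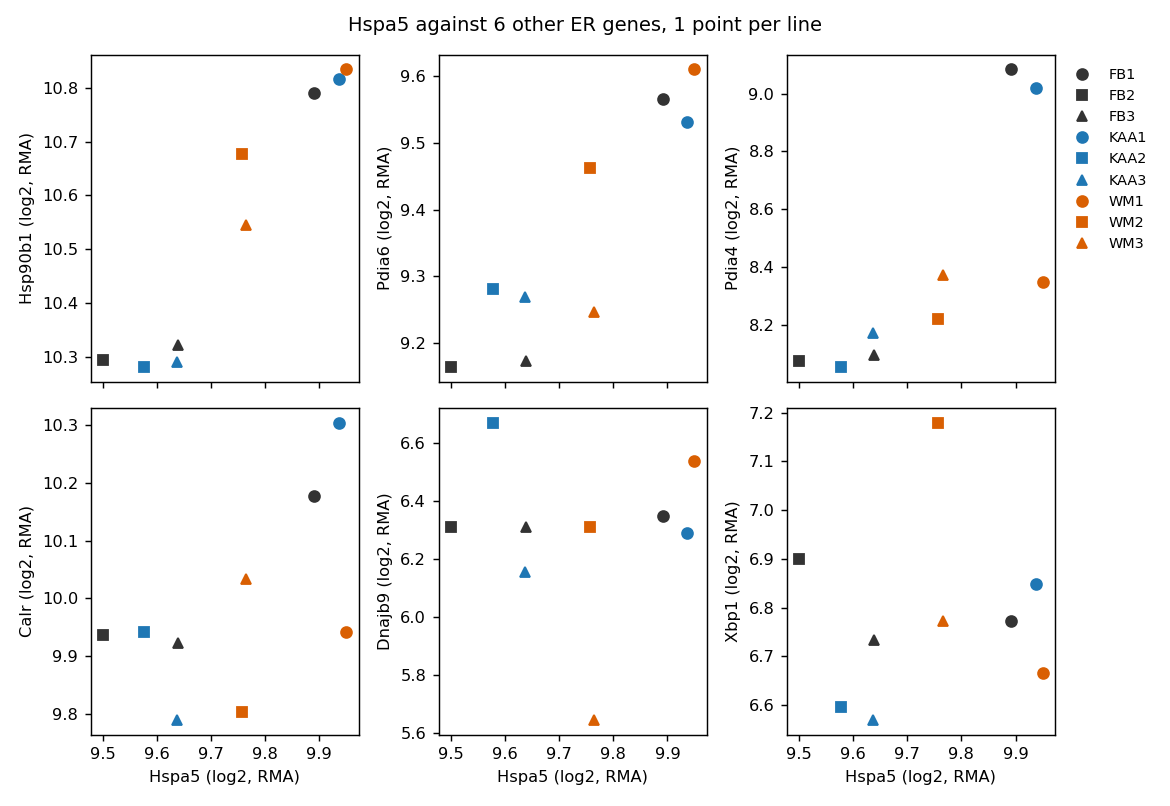
Level of Hspa5 (log2, RMA) against that of Hsp90b1, Pdia6, Pdia4, Calr, Dnajb9 and Xbp1 in the 9 lines, 1 point per line, with black for mESCFB, blue for mESCKAA and orange for mESCWM. Hsp90b1 runs along Hspa5 with an r of 0.956, Pdia4 holds FB1 and KAA1 apart at 9.08 and 9.02, and Dnajb9 shows no such order with an r of -0.0279.

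Outside the 10 genes, the rows with a single symbol and a level at or above the array median that ran most closely with Hspa5 were Ep300 with an r of 0.967, Ylpm1 and Slc30a9 with 0.963, and Slc38a1 and Spg11 with 0.962 over the 9 lines. Ep300 encodes a histone acetyltransferase, Slc30a9 a zinc transporter and Slc38a1 an amino acid transporter. Ep300 was at 7.48 in FB1, 7.41 in KAA1 and 7.46 in WM1, and between 6.84 and 7.20 in the other lines. The lowest adjusted p of the 5, from exact permutation over 9 lines, was 0.108, so none of them passed either.

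The wider ER machinery gave 0 calls as well. Of 78 further genes with a row of their own, limma called 0 in each comparison (0% of all rows), and 3, 6 and 6 had an unadjusted p under 0.05, which is 3.85%, 7.69% and 7.69% of them beside 4.81%, 5.89% and 6.29% of all rows. FB1 and KAA1 were above the other 7 lines in 15 of the 78 (19.2%), beside 4.96% of all rows. Of the 63 with a promoter in RefSeq, ERSE was found in 6, those of Canx, Creld2, Dnajc3, Ero1b, Derl3 and Syvn1, and ERSE-II in Dnajb11.

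Among 14 sensors and regulators of the response, 0 were called and the median differences were 0.05, 0.02 and -0.01 in the order mESCKAA minus mESCFB, mESCWM minus mESCFB and mESCWM minus mESCKAA. FB1 and KAA1 were on top in 5 of them (35.7%). These are the sensors Atf6 and Eif2ak3, the related membrane factor Creb3l2, the translationally controlled factor Atf4 and its target Trib3. Atf6 was at 7.10 in FB1 and 6.97 in KAA1, against 6.07 to 6.65. Ddit3, the factor known as CHOP, was highest in KAA2 at 6.85, against 5.97 to 6.24 in the others. Chac1, which breaks down glutathione, was at 6.83, 6.44 and 6.47 in the control lines and at 6.87, 7.21 and 7.70 in WM1, WM2 and WM3. These groups did not overlap, and the difference of 0.68 (SE 0.21) had an adjusted p of 0.819 in limma.

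Among 28 other folding factors 0 were called, with median differences of -0.03, -0.01 and 0.003, and FB1 and KAA1 were on top in 6 (21.4%). These include the ER Hsp70-like Hyou1, the disulfide isomerase P4hb and the oxidase Ero1a. Hyou1 was at 7.65 in FB1 and 7.75 in KAA1, against 7.07 to 7.37 in the others. Pdia3, the disulfide isomerase that works with calreticulin, was at 10.01, 10.12 and 10.22 in FB1, KAA1 and WM1 and between 9.58 and 9.83 in the others. The lines numbered 1 were thus on top as for Hspa5, while the order of the lines below differed. The smallest p for mESCWM against mESCFB belonged to the prolyl isomerase Fkbp2, with a difference of -0.18 (SE 0.08, adjusted p = 0.819 in limma).

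Among 18 genes of ER-associated degradation 0 were called, with median differences of -0.09, -0.09 and 0.01, and FB1 and KAA1 were on top in Syvn1 alone (5.56%). Ubxn8, a membrane anchor for the ATPase VCP, had the smallest p of all 78 genes. It was at 6.02 ± 0.06 (SD, n = 3) in mESCFB, 5.76 ± 0.11 in mESCKAA and 5.45 ± 0.06 in mESCWM, and the difference of mESCWM minus mESCFB was -0.57 (SE 0.08, adjusted p = 0.475 in limma). Selenos, a selenoprotein of the same machinery, had -0.44 (SE 0.08, adjusted p = 0.475 in limma) in that comparison. Among 18 genes of import into and exit from the ER 0 were called, with medians of -0.07, -0.11 and -0.05, and FB1 and KAA1 were on top in 3 (16.7%). The largest difference there was -0.74 (SE 0.18, adjusted p = 0.732 in limma) for Sec11c, a subunit of the signal peptidase, in mESCWM minus mESCFB.

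Chaperones outside the ER, 16 genes of the cytosol and mitochondria, also gave 0 calls in limma, with median differences of -0.06, 0.04 and 0.04. FB1 and KAA1 were on top in 2 of them (12.5%), Hsph1 and Hspd1, and the 3 lines numbered 1 in Hspa8 alone (6.25%). The median deviation of these 16 was 0.04 in FB1 and -0.01 in KAA1, beside 0.20 and 0.18 for the 10 ER genes. Whether the lists differ in this was not tested.

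**Figure D5:**
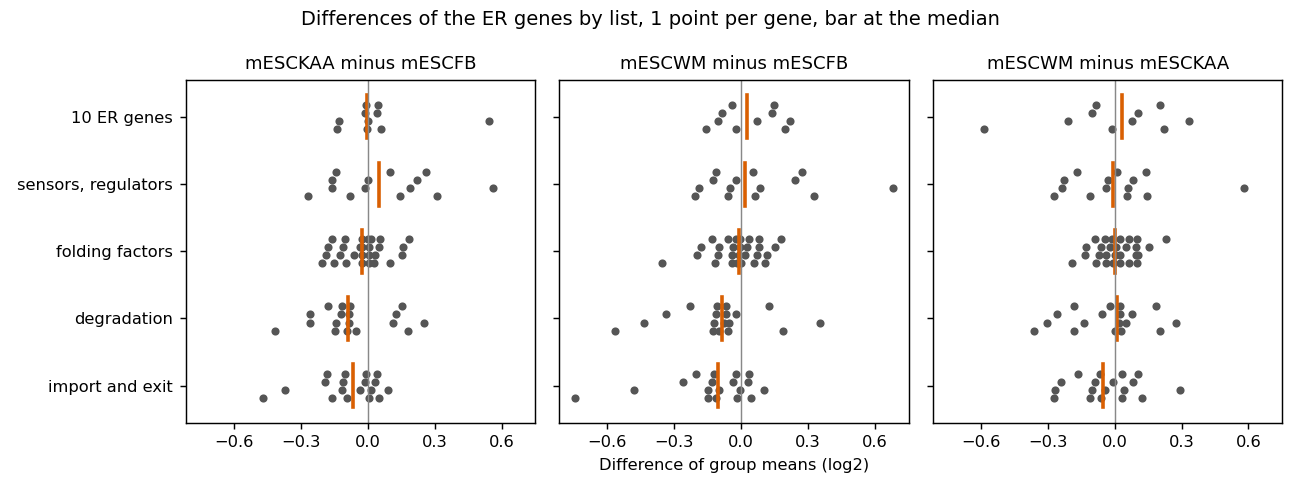
Difference of group means (log2) for the 10 ER genes and for 14 sensors and regulators, 28 folding factors, 18 genes of degradation and 18 of import and exit, 1 point per gene, spread vertically only for legibility, with an orange bar at the median of each list. The medians lie between -0.11 and 0.05, and 0 of the genes passed the adjusted test in any comparison.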

How the data were processed

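RNA from 9 mESC lines, 3 per group, was hybridized by the authors to 1 array each. The deposited log2 values were made by the authors with Affymetrix Expression Console and R 3.1.0, with RMA named in their methods, and were not scaled again. The file has no intensities, so background could not be checked. The number of arrays limits the precision.

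Groups came from the sample titles. Differences of group means came from a fit of all 9 lines by limma 3.58.1 under R 4.3.3 (two-sided, threshold 0.05 after Benjamini-Hochberg adjustment over 23410 rows with a gene), and the rank product with 100 permutations in numpy 2.4.6. Simulated data for mESCKAA against mESCFB, with 200 of 23410 rows changed, were used as a check. In these data limma recovered 82% of changes of 1 log2 and 98% of changes of 2, with 6 false calls. Changes under 1 log2 were not simulated, whereas the differences of the ER genes lay between -0.59 and 0.55. The check therefore does not tell how often changes of that size would be found. Correlations used exact permutation over the lines. Genes were placed and promoters read from RefSeq (GRCm38.p6). Probe positions were not used here.

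The members, gene lists and alternatives were chosen with earlier results of these data known. Named are the 10 genes, per wider list and comparison up to 3 genes with the smallest p, and the 5 genes nearest to Hspa5. Others, among them Atf6, Hyou1, Pdia3 and the markers, were named after their values were seen.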

Additional observations from a re-analysis of the deposited data

How the results depend on the processing

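For the 10 ER genes the counts past limma stayed at 0 with all rows, brighter rows, 1 row per symbol, the mean of a gene's rows, quantile normalization, median centring, fits of 2 groups only, trended variances, the block and lines left out, with a lowest adjusted p of 0.467. Those of its F test stayed at 0 in the same alternatives except the fits of 2 groups. The rank product was run with brighter rows, a threshold of 0.1 and lines left out, and the correlation with Hspa5 with median centring, deviations from group means and lines left out, and both stayed at 0. The signs of small differences did not hold: 16 of 30 changed sign somewhere. No label says what the replicate numbers mark. Same-number lines had an r of -0.01 to 0.33, over 0.1 in 5 of 9 pairs, so the numbers were not taken to pair the lines, although 8 of 9 lines correlated best with their own number, a hint from the data and not from the design. With the replicate number as a block, the SE of Hsp90b1 in mESCWM minus mESCFB went from 0.18 to 0.09 (adjusted p = 0.68 in limma, n = 9 lines). In that fit limma called 0 rows, as without it, and 0 of the 10 genes, with medians of -0.0013, 0.0243 and 0.0334 for mESCKAA minus mESCFB, mESCWM minus mESCFB and mESCWM minus mESCKAA. The median of mESCWM minus mESCFB was 0.1916 without FB1 and KAA1, and -0.031 to 0.1916 when single lines were left out, the latter without FB1. Without FB1, KAA2 and WM3, the lines with Eif2s3y, it was 0.1983, and 0.1671 for mESCKAA minus mESCFB.

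In mESCKAA minus mESCFB, Pdia4 turned to 0.15 as the mean of its rows, and quantile normalization gave 0.0428 for Hsp90b1, 0.0363 for Pdia4, 0.0436 for Herpud1 and 0.0417 for Calr. Without FB1 and KAA1, an alternative chosen after seeing the data, Pdia4 turned to 0.0275 and Herpud1 to 0.0889 in that comparison. In mESCWM minus mESCFB their removal left Pdia4 at 0.23, Herpud1 at 0.0889 and Txndc12 at 0.16, and in mESCWM minus mESCKAA Pdia4 at 0.20 and Calr at 0.06. Without FB1, KAA2 and WM3 mESCKAA minus mESCFB was 0.25 for Hsp90b1, 0.51 for Pdia4, -0.0886 for Dnajb9, 0.11 for Herpud1 and 0.12 for Calr. It was 0.20 for Pdia4, 0.11 for Dnajb9, 0.0889 for Herpud1 and 0.20 for Txndc12 in mESCWM minus mESCFB, and 0.20 for Dnajb9 in mESCWM minus mESCKAA. As deviations from group means r with Hspa5 was 0.105 for Dnajb9 and -0.019 for Xbp1.

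Leaving out single lines, mESCKAA minus mESCFB ranged from -0.0693 to 0.15 for Hspa5, -0.18 to 0.15 for Hsp90b1, -0.31 to 0.33 for Pdia4, -0.026 to 0.19 for Pdia6, -0.10 to 0.16 for Dnajb9, -0.10 to 0.10 for Herpud1 and -0.15 to 0.11 for Calr. mESCWM minus mESCFB ranged from -0.28 to 0.23 for Pdia4, -0.35 to 0.10 for Dnajb9, -0.12 to 0.0889 for Herpud1, -0.0822 to 0.17 for Xbp1 and -0.18 to 0.16 for Txndc12. mESCWM minus mESCKAA ranged from -0.28 to 0.20 for Pdia4, -0.0057 to 0.18 for Pdia6, -0.39 to 0.0521 for Dnajb9 and -0.20 to 0.06 for Calr. The causes were not tested. Over all rows the rank product count ran from 0 to 70 for mESCKAA against mESCFB, 4 to 45 for mESCWM against mESCFB and 32 to 65 for mESCWM against mESCKAA when single lines were left out. With 3 lines a group, 0 calls do not show that the groups were alike.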

Other observations

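Outside the 10 ER genes and chosen by sequence alone, 17 other genes with an ERSE in their RefSeq promoter had a row of their own. Their median differences were 0.03 for mESCKAA minus mESCFB, -0.0016 for mESCWM minus mESCFB and -0.02 for mESCWM minus mESCKAA, with single genes between -0.39 and 0.58, and 0 passed limma's adjusted test. Both of these ends belong to Olfr59, whose mean level was low at 2.49. The median r of the 17 with Hspa5 over the 9 lines was 0.119. It ran from -0.749 for Acnat2, at a mean level of 2.09, to 0.603 for Alg12, at 5.31. Genes of low level were not set apart in these medians.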
